A study of Mus musculus with 16 samples.

Results

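The atrial identity genes were followed as 10 genes chosen by name: Myl4, Myl7, Sln, Bmp10, Nr2f2, Kcna5, Gja5, Pam, Dkk3 and Stard10, known for higher expression in the atria than in the ventricles of the mouse heart or for a part in setting atrial character. All 10 were among the 22468 genes of the count table and all 10 passed the filter on low counts, among 13412 genes tested. Messenger RNA of whole ventricles, taken above and below the coronary ligation, was sequenced from neonatal mice in 16 samples. There were 4 samples in each of 4 groups: Chrna7 knockout (KO) mice after surgical myocardial infarction (MI), KO mice after sham surgery, wild-type (WT) mice after MI and WT mice after sham surgery. The knockout strain was Jax #003232, which carries a germline loss of Chrna7; that gene encodes the alpha 7 subunit of a nicotinic receptor for acetylcholine. The age in days, sex and litter are not given in the sources used here, nor is it stated whether each sample was 1 animal.

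Atrial and ventricular muscle cells build their contractile apparatus from different versions of the same parts. The myosin motor carries 2 light chains, an essential one and a regulatory one; atrial muscle uses Myl4 and Myl7 and ventricular muscle Myl3 and Myl2. Atrial muscle also adds sarcolipin (Sln), a small peptide that slows the calcium pump of the sarcoplasmic reticulum, stores natriuretic peptide in secretory granules rich in Pam, and conducts through connexin 40 (Gja5) channels. Before birth several atrial genes are also active in the ventricle and are shut down there as the chamber matures, and some return in stressed ventricular muscle.

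Promoter sequence is shown first as the context of the genes on which the results turn. RefSeq promoters (build GRCm38.p6) were at hand for 8 of the 10 genes, and the 250 bases before the start of transcription were searched on both strands for 6 short motifs. Below, printed 5′ to 3′ in the direction of the gene, are those of the atrial light chains, of Bmp10, which spanned the widest range of levels, and of Gja5, which changed in more comparisons than the others. They lie at chr11:104550413-104550662 on the plus strand (Myl4), chr11:5898783-5899032 on the minus strand (Myl7), chr6:87428744-87428993 on the plus strand (Bmp10) and chr3:97032152-97032401 on the plus strand (Gja5). Capitals mark motif matches.
Myl4: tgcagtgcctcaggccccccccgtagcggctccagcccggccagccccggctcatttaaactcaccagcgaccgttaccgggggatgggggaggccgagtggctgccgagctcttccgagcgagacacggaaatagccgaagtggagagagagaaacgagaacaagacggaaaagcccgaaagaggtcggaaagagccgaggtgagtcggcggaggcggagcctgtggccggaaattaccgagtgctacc
Myl7: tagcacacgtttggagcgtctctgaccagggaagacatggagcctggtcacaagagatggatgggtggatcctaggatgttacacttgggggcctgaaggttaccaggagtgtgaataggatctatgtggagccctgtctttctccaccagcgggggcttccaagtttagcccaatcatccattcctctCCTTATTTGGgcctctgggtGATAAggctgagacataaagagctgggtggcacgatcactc
Bmp10: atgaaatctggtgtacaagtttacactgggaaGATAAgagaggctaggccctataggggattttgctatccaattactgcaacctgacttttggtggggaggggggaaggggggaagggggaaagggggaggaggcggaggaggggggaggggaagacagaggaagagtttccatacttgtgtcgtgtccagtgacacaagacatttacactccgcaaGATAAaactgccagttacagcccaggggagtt
Gja5: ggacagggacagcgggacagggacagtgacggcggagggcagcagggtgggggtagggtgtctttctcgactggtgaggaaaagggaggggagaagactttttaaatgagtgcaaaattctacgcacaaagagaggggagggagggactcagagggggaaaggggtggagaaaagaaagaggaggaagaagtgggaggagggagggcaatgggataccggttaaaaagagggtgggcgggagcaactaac
The Myl7 window held a CArG box, the element that serum response factor reads in muscle genes, 61 to 52 bases before the start, and the letters GATAA, the core read by GATA factors, 41 to 37 bases before it. A CArG box was present in 1.47% of 32851 promoter windows of the same length and GATAA in 22.6%. Both motifs were added to the search after the promoter sequences were seen, so these shares do not test the matches. Bmp10 held GATAA at 218 to 214 and at 32 to 28 bases before the start, and Stard10 held it once on the other strand. The other motifs, TATAAA (12.4% of all windows), AGGTGT (11.8%), AGGTCA (14.0%) and a MEF2 site (2.92%), were found in none of the 8 promoters. None of the matches overlapped another. A match is a run of letters and says nothing of binding.

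Gene counts per library ranged from 10711442 to 17223580. Myl2, the ventricular regulatory light chain, averaged 9903 CPM per kilobase of principal transcript in KO MI, 9057 in KO sham, 9288 in WT MI and 11233 in WT sham. Myl7 averaged 320.0 in KO MI, 151 in KO sham, 431 in WT MI and 735 in WT sham. Myl2 was thus far above Myl7 in every group. These means do not measure how much atrial tissue a library held, which was not tested. CPM is the library-scaled count of edgeR's cpm function. Chrna7 itself was covered by 0 to 4 reads per library in both genotypes, too few to check the knockout label. The 4 KO sham libraries stood apart from the other 12 along the first principal component. KO MI replicate 1, KO sham replicate 2 and WT sham replicate 1 had almost no Y-linked reads, and KO MI replicate 4, WT MI replicate 2 and WT sham replicate 2 stood apart on the fourth component. The calls of the 10 genes and the light chain ratios were also computed without these libraries, and the other lists and the correlations were not.

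The 10 genes differed widely in level. Scaled by the length of the principal transcript, Myl7 averaged 409 CPM per kilobase over the 16 samples, Myl4 200.1, Pam 184, Stard10 22.2, Sln 22.1, Kcna5 12.7, Dkk3 12.1, Bmp10 4.30, Nr2f2 3.46 and Gja5 3.32. On that scale the atrial light chains and Pam were the abundant members, and the secreted factor Bmp10, the nuclear receptor Nr2f2 and the connexin Gja5 the scarce ones. Myl4 and Pam, Stard10 and Sln, Kcna5 and Dkk3, and Bmp10, Nr2f2 and Gja5 are neighbours in this order whose levels lay within the spread between samples. The single-library extremes fell in the same places for most genes: 8 of 10 were lowest in a KO sham library, 5 in replicate 4 and 3 in replicate 2, and 8 of 10 were highest in WT sham replicate 1. The exceptions were Nr2f2, lowest and highest within KO MI, and Kcna5, lowest in WT sham replicate 4 and highest in KO MI replicate 3.

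**Figure D1:**
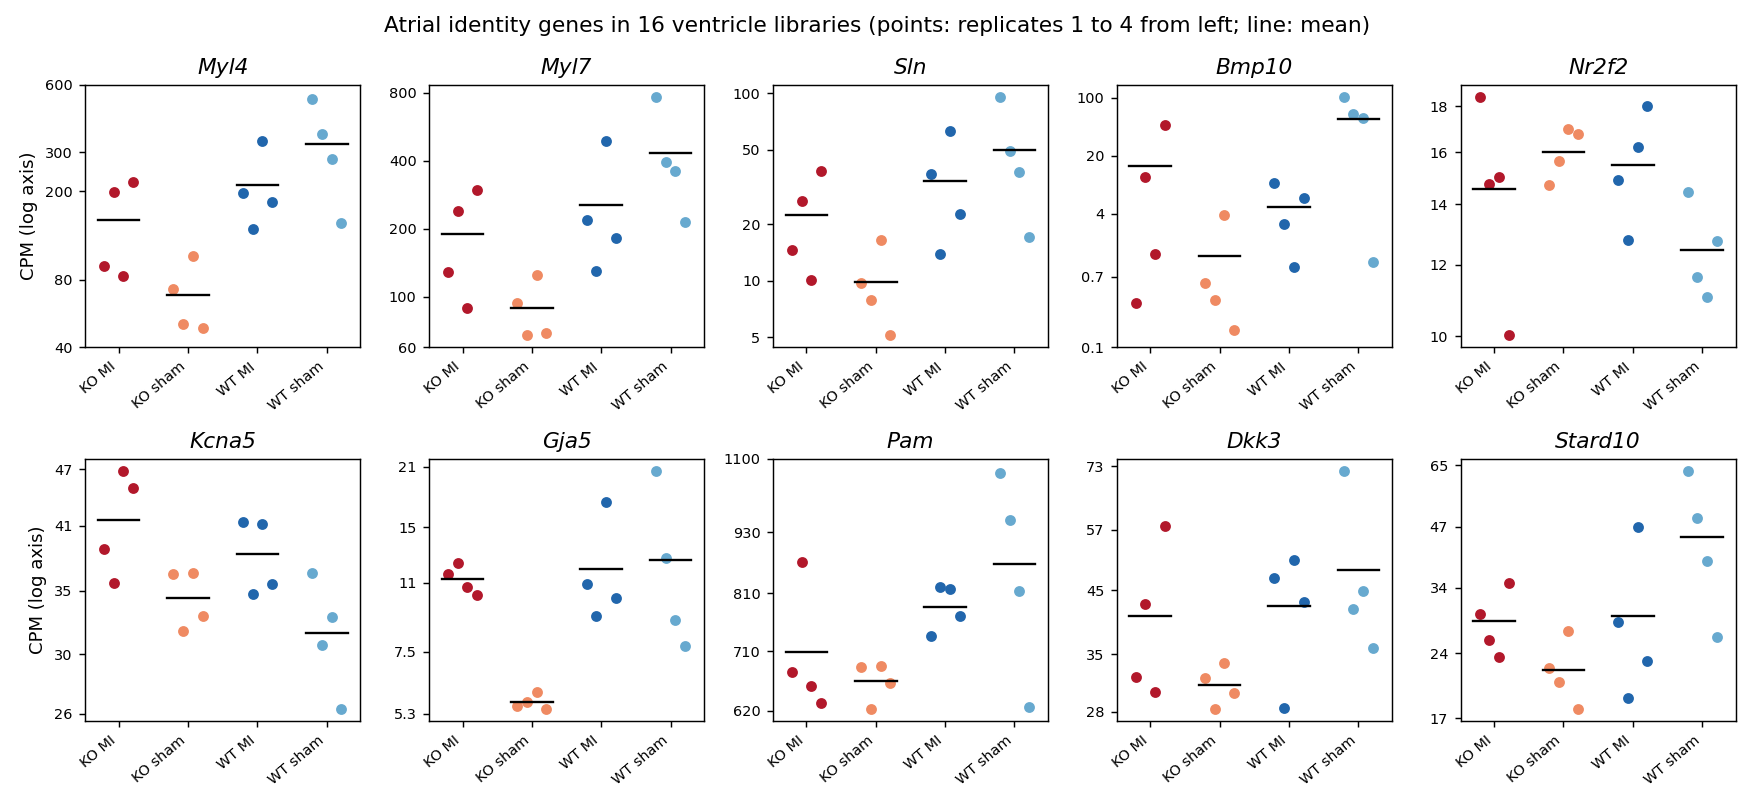
Level of each of the 10 atrial identity genes in CPM (log axis) in every library, by group; points are replicates 1 to 4 from left to right and the line is the group mean. Myl4, Myl7, Sln, Gja5 and Dkk3 have all 4 KO sham libraries below all 4 WT sham libraries, and Bmp10 spreads over the widest range, with 0.160 CPM in KO sham replicate 4 and 103 CPM in WT sham replicate 1.

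In hearts that had only sham surgery, the knockouts carried less RNA of most of the 10 genes. Of the 10, 7 were lower in KO sham than in WT sham ventricles (edgeR quasi-likelihood test, Benjamini-Hochberg adjusted p under 0.05) and none was higher. Over all 13412 genes tested 15.3% were called in this comparison, 7.74% as lower and 7.6% as higher. The 10 genes were chosen with earlier results of these data known, so these shares do not test the set. The falls were 45.0-fold for the ligand gene Bmp10, 5.09-fold for the calcium pump regulator Sln and 4.87-fold and 4.73-fold for the light chain genes Myl7 and Myl4, and smaller for Gja5 (2.21-fold), Stard10 (2.03-fold) and Pam (1.31-fold). The median of the 10 log2 fold changes was -1.08, beside -0.0056 over all genes tested. The libraries of the groups did not overlap for 5 of the genes that were lower (12.3% of all genes tested) and for 1 that was higher, Nr2f2 (14% of all genes tested). These are bulk samples, in which fewer cells of a type and less RNA per cell cannot be told apart.

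Myl4 (ENSMUSG00000061086, chromosome 11) encodes the atrial essential light chain. In the order of the replicates, Myl4 stood at 92.1, 198, 83.3 and 221 CPM in KO MI, at 73.1, 50.7, 102 and 48.9 CPM in KO sham, at 197, 135, 338 and 179 CPM in WT MI and at 518, 361, 278 and 144 CPM in WT sham. Every KO sham library lay below every WT sham library, while the MI groups reached into each other. Group means were 149 ± 71.0 CPM in KO MI, 68.8 ± 24.9 in KO sham, 212 ± 87.6 in WT MI and 325 ± 156 in WT sham (SD, n = 4 each). Myl4 fell by 2.24 ± 0.47 (SE) on the log2 scale in KO sham relative to WT sham (adjusted p = 0.00781).

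Myl7 (ENSMUSG00000020469, chromosome 11), the atrial regulatory light chain, has the promoter with the CArG box. Its replicates stood at 129, 239, 88.8 and 298 CPM in KO MI, at 93.6, 68.0, 125 and 69.0 CPM in KO sham, at 218, 130.1, 487 and 182 CPM in WT MI and at 766, 395, 358 and 215 CPM in WT sham. The pattern over libraries was that of Myl4, with WT sham replicate 1 highest and all KO sham libraries below all WT sham libraries. Myl7 fell by 2.29 ± 0.53 on the log2 scale in KO sham relative to WT sham (adjusted p = 0.0132). The Myl4 and Myl7 calls held in every fit that left out 1 library, and both were lost when the 3 libraries low in Y-linked reads were left out, at log2 fold changes of -1.80 (adjusted p = 0.0526) and -1.75 (adjusted p = 0.0857).

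Sln (ENSMUSG00000042045, chromosome 9), encodes the calcium pump inhibitor of atrial muscle. Sln stood at 14.6, 26.7, 10.1 and 38.6 CPM in KO MI, at 9.70, 7.94, 16.5 and 5.13 CPM in KO sham, at 37.1, 13.9, 62.7 and 22.7 CPM in WT MI and at 95.6, 49.3, 38.1 and 17.2 CPM in WT sham. The highest KO sham library, replicate 3, came close to the lowest WT sham library, replicate 4, but did not pass it. Sln fell by 2.35 ± 0.64 on the log2 scale in KO sham relative to WT sham (adjusted p = 0.0282).

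Bmp10 (ENSMUSG00000030046, chromosome 6) encodes a secreted ligand of the TGF-beta family that drives growth of the embryonic ventricular wall and is kept up after birth mainly in the atria. Its level differed 644-fold between the highest and lowest library, the widest range of the 10 genes. Bmp10 stood at 0.343, 11.0, 1.31 and 47.5 CPM in KO MI, at 0.586, 0.368, 3.89 and 0.160 CPM in KO sham, at 9.30, 3.04, 0.915 and 6.27 CPM in WT MI and at 103, 63.3, 56.9 and 1.06 CPM in WT sham. In the WT sham group 3 libraries were high and replicate 4 was low, and replicate 4 lay below KO sham replicate 3, so the groups overlapped. The KO sham values rest on 9, 5, 52 and 2 reads, the last of which is under a floor of 3 reads (0.241 CPM in that library), against 1194, 812, 623 and 11 reads in WT sham. Bmp10 fell by 5.49 ± 1.52 on the log2 scale in KO sham relative to WT sham (adjusted p = 0.0303), and by 7.16 without KO sham replicate 3 (adjusted p = 0.0486).

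Nr2f2 (ENSMUSG00000030551, chromosome 7), the nuclear receptor COUP-TFII, sets atrial identity in the developing mouse heart and also marks venous and lymphatic endothelium. Its sham groups were ordered the other way from those of the light chains. Nr2f2 stood at 18.4, 14.7, 15.0 and 10.02 CPM in KO MI, at 14.7, 15.7, 17.0 and 16.8 CPM in KO sham, at 14.9, 12.8, 16.2 and 18.02 CPM in WT MI and at 14.4, 11.6, 11.1 and 12.8 CPM in WT sham. All KO sham libraries lay above all WT sham libraries, with the lowest of the KO sham libraries only just above the highest of the WT sham libraries. The log2 fold change of KO sham relative to WT sham was 0.36 ± 0.15 and missed the threshold (adjusted p = 0.108). It passed when the compared groups were fitted alone. Nr2f2, Stard10 and Dkk3 lie on chromosome 7 like Chrna7, at 7.14, 38.1 and 48.9 Mb from it in GRCm38; the part of DNA carried along with the knockout allele was not tested.

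Kcna5 (ENSMUSG00000045534, chromosome 6) encodes the Kv1.5 potassium channel, which shortens the atrial action potential and in the mouse is active in ventricular muscle too. Kcna5 stood at 38.8, 35.6, 46.8 and 44.9 CPM in KO MI, at 36.4, 31.8, 36.5 and 33.0 CPM in KO sham, at 41.4, 34.7, 41.2 and 35.6 CPM in WT MI and at 36.6, 30.7, 32.9 and 26.3 CPM in WT sham. Its highest library was only 1.78 times its lowest, and the sham groups overlapped. The log2 fold change of KO sham relative to WT sham was 0.12, with a 95% interval from -0.10 to 0.35 (adjusted p = 0.468).

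Gja5 (ENSMUSG00000057123, chromosome 3) encodes connexin 40, the gap junction protein of atrial muscle, the ventricular conduction system and arterial endothelium. Gja5 stood at 11.6, 12.3, 10.8 and 10.3 CPM in KO MI, at 5.53, 5.66, 5.98 and 5.45 CPM in KO sham, at 10.9, 9.13, 17.3 and 10.1 CPM in WT MI and at 20.6, 12.6, 8.95 and 7.73 CPM in WT sham. The 4 KO sham libraries were tightly grouped and lay below all 12 others. Gja5 fell by 1.15 ± 0.25 on the log2 scale in KO sham relative to WT sham (adjusted p = 0.00499), and this call held under every alternative, with adjusted p between 0.000196 and 0.0394. Its gene span overlaps the protein-coding gene Gpr89 on the opposite strand, and the strand setting of the counting is not given in the sources used here. Gpr89, a Golgi membrane protein, had a log2 fold change of 0.09 in the same comparison (adjusted p = 0.644).

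Pam (ENSMUSG00000026335, chromosome 1) encodes the enzyme that amidates peptide hormones and is a major membrane protein of atrial secretory granules. Pam stood at 676, 869, 657 and 632 CPM in KO MI, at 684, 622, 686 and 660.1 CPM in KO sham, at 735, 822, 817 and 769 CPM in WT MI and at 1064, 957, 814 and 626 CPM in WT sham. WT sham replicate 4 lay among the KO sham libraries while the other 3 WT sham libraries were higher. Pam fell by 0.38 ± 0.13 on the log2 scale in KO sham relative to WT sham (adjusted p = 0.0463), the smallest of the 7 changes.

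Dkk3 (ENSMUSG00000030772, chromosome 7) encodes a secreted glycoprotein of the Dickkopf family. Dkk3 stood at 32.0, 42.6, 30.2 and 57.8 CPM in KO MI, at 32.0, 28.3, 33.9 and 30.2 CPM in KO sham, at 47.2, 28.4, 50.7 and 43.0 CPM in WT MI and at 71.8, 41.9, 44.9 and 36.0 CPM in WT sham. The KO sham libraries all lay below the WT sham libraries, yet the log2 fold change of -0.65 ± 0.23 missed the threshold (adjusted p = 0.0665). It passed with DESeq2, with the compared groups fitted alone, without WT sham replicate 4 and without the 3 libraries apart on the fourth component.

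Stard10 (ENSMUSG00000030688, chromosome 7) encodes a lipid transfer protein that carries phospholipids between membranes. Stard10 stood at 29.6, 25.8, 23.6 and 34.8 CPM in KO MI, at 22.3, 20.6, 27.0 and 17.9 CPM in KO sham, at 28.3, 19.0, 47.0 and 23.0 CPM in WT MI and at 63.2, 49.2, 39.2 and 26.2 CPM in WT sham. KO sham replicate 3 passed WT sham replicate 4 by a small margin and the groups were otherwise apart. Stard10 fell by 1.02 ± 0.27 on the log2 scale in KO sham relative to WT sham (adjusted p = 0.0206).

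**Figure D2:**
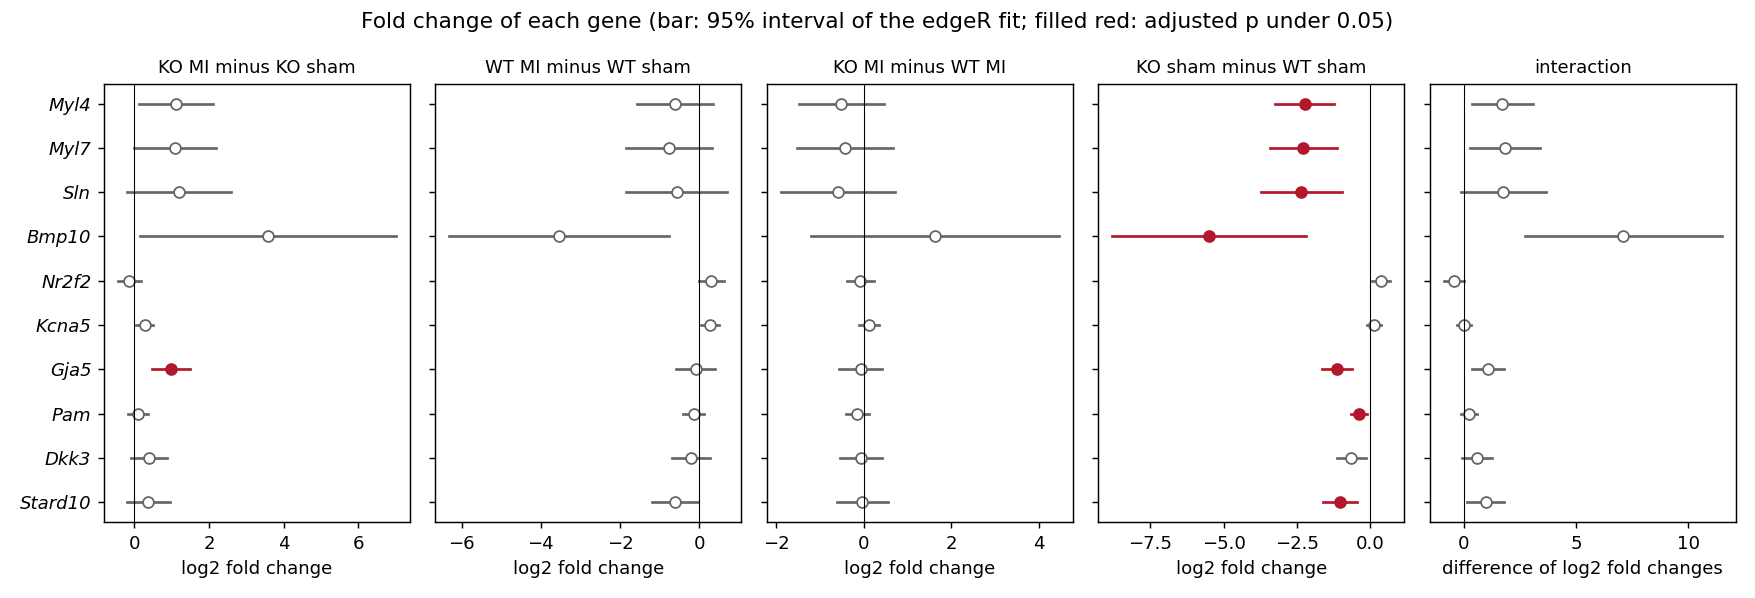
Log2 fold change of each gene in the 4 comparisons of groups, and for the interaction the difference of log2 fold changes between genotypes; bars are 95% intervals of the edgeR fit and filled red points passed an adjusted p under 0.05. There are 7 called genes in KO sham minus WT sham, all to the left of 0, and 1 in KO MI minus KO sham, Gja5, to the right of 0.

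The calls after sham surgery of Sln, Bmp10, Pam and Stard10 were each lost in several of the 8 fits that left out 1 library. In these fits the log2 fold changes ran from -2.71 to -1.83 for Sln and from -7.16 to -5.02 for Bmp10. They ran from -0.51 to -0.27 for Pam and from -1.20 to -0.80 for Stard10. Leaving out WT sham replicate 1, WT sham replicate 2, KO sham replicate 2 or KO sham replicate 4, each alone, left 3 genes called: Myl4, Myl7 and Gja5. Of all genes tested, 15.4%, 10.2%, 9.77% and 9.59% were called in these fits, in that order, beside 15.3% in the reported fit. Without KO sham replicate 1 the calls of Sln, Bmp10 and Pam ended, without WT sham replicate 3 those of Bmp10 and Pam, and without KO sham replicate 3 that of Pam. The shares over all genes tested were 9.82%, 9.99% and 10.2%, in that order. Without the 3 libraries low in Y-linked reads Gja5 alone of the 10 was called, beside 9.19% of all genes tested. The log2 fold changes of Sln, Bmp10, Pam and Stard10 became -1.74, -4.72, -0.24 and -0.77. Without the 3 libraries apart on the fourth component, an alternative chosen after seeing the data, 6 were called, with Dkk3 in and Pam and Stard10 out. In that fit 21.7% of all genes tested were called.

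After infarction in the knockouts, Gja5 rose and the other 9 atrial genes did not pass the test. Gja5 averaged 11.2 ± 0.876 CPM in KO MI and 5.66 ± 0.232 CPM in KO sham, with every KO MI library above every KO sham library. Its log2 fold change was 0.99 ± 0.25 (adjusted p = 0.0115), a rise of 1.98-fold that held under every alternative. This made 1 of 10 genes called, where 16.6% of all genes tested were called and 8.54% as higher and 8.02% as lower, and 1 of 10 whose libraries did not overlap and were higher (11.4% of all genes tested). The log2 fold changes were positive for 9 of 10 genes with a median of 0.69, beside 0.0078 over all genes tested.

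Myl4, Myl7 and Sln had log2 fold changes of 1.11, 1.09 and 1.19 in KO MI relative to KO sham, with adjusted p of 0.114, 0.168 and 0.228. In each of these genes KO MI replicates 2 and 4 were high and replicates 1 and 3 lay within or just beside the KO sham range. Bmp10 had a log2 fold change of 3.58, with a 95% interval from 0.15 to 7.01 (adjusted p = 0.142), which rested on the same replicates. Of the gene counts of KO MI replicate 4, 17.35% were of mitochondrially encoded genes, beside 9.79 to 10.6% in the other KO MI libraries. The bearing of this on the 10 genes was not tested. Kcna5 had a log2 fold change of 0.27 (adjusted p = 0.0862), Dkk3 0.39, Stard10 0.37, Pam 0.10 and Nr2f2 -0.14. DESeq2 called Bmp10 as well as Gja5.

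In wild-type hearts infarction left the atrial genes without a called change. None of the 10 passed the edgeR test or DESeq2 in WT MI relative to WT sham, where 2.25% of all genes tested passed in edgeR. In edgeR 3 of the 10 had an unadjusted p under 0.05, as did 2007 of all 13412 genes tested. The log2 fold changes were negative for 8 of 10 genes with a median of -0.39, beside -0.011 over all genes tested. Bmp10 was at -3.53 ± 1.28 (adjusted p = 0.206), Stard10 at -0.61 ± 0.27 (adjusted p = 0.294) and Kcna5 at 0.27 ± 0.11 (adjusted p = 0.233). In Bmp10 the 4 WT MI libraries lay between 0.915 and 9.30 CPM, below 3 of the WT sham libraries and around the fourth. Without WT MI replicate 3, the WT MI library with the most Myl4, Myl7, Sln, Gja5 and Stard10, the fall of Stard10 was called.

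Between genotypes after infarction no difference in an atrial gene was larger than the spread between samples. Neither edgeR nor DESeq2 called any of the 10 in KO MI relative to WT MI, where edgeR called 0.0149% of all genes tested. None of the 10 had an unadjusted p under 0.05 in edgeR, where 638 of all 13412 genes tested did. The log2 fold changes ran from -0.59 for Sln to 1.63 for Bmp10, with a median of -0.076. The intervals bound what these samples could show: for Gja5 the 95% interval ran from -0.56 to 0.42, for Myl4 from -1.48 to 0.45 and for Bmp10 from -1.20 to 4.44.

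The difference between genotypes in the response to infarction was tested as an interaction, the log2 fold change in the knockouts minus that in the wild type. None of the 10 genes passed in edgeR, where 2.74% of all genes tested did. In that test 6 of the 10 had an unadjusted p under 0.05, as did 2428 of all 13412 genes tested. The estimates were 7.12 ± 2.01 for Bmp10 (adjusted p = 0.0904), 1.08 ± 0.34 for Gja5 (adjusted p = 0.0982), 1.73 for Myl4, 1.86 for Myl7 and 0.99 for Stard10. Nr2f2 went the other way, at -0.44 ± 0.21 (adjusted p = 0.274). DESeq2 called Bmp10 and Gja5. In edgeR the same pair was called without WT sham replicate 4, and Gja5 and Stard10 were called without WT MI replicate 3. The 4 KO sham libraries enter this test, the knockout response and the sham comparison alike, so the 3 results are not separate observations.

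The balance of atrial to ventricular light chains gave a measure within each library that does not depend on scaling. Per 1000 reads of Myl2, without scaling by length, Myl7 had 14.1, 29.6, 10.5 and 31.3 reads in KO MI, 11.7, 8.04, 15.5 and 9.03 in KO sham, 25.6, 15.0, 60.01 and 23.6 in WT MI and 98.7, 44.7, 32.7 and 17.4 in WT sham. Per 1000 reads of Myl3, Myl4 had 14.6, 35.05, 13.8 and 32.8 reads in KO MI, 11.3, 7.70, 15.5 and 8.32 in KO sham, 29.6, 17.98, 55.1 and 31.7 in WT MI and 98.0, 47.2, 36.7 and 16.2 in WT sham. Both ratios were below all WT sham values in all KO sham libraries.

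The Myl7 to Myl2 ratio differed by -1.89 on the log2 scale between KO sham and WT sham and the Myl4 to Myl3 ratio by -1.99. The 2-sided exact permutation test gave p = 0.0286 for each, the smallest that 4 against 4 samples allow (adjusted p = 0.114 over the 8 ratio tests). Without the 3 libraries low in Y-linked reads these differences were -1.32 and -1.42 (exact p = 0.1 for each). Fewer samples raise the smallest p that the test allows. Leaving out WT sham replicate 1 alone gave -1.46 and -1.56 (exact p = 0.0286 for each). The other 6 ratio comparisons had groups that overlapped, with exact p between 0.0857 and 0.6. Myl2 itself had a log2 fold change of -0.31 ± 0.12 in KO sham relative to WT sham (adjusted p = 0.0737) and Myl3 one of -0.20 ± 0.13 (adjusted p = 0.28).

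**Figure D3:**
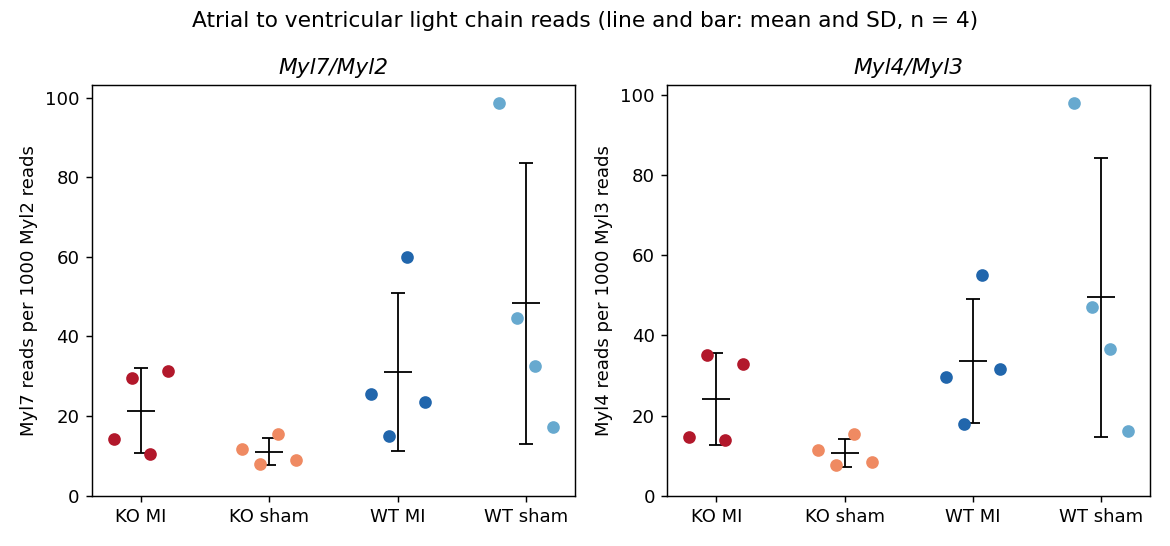
Reads of the atrial light chain per 1000 reads of the ventricular light chain of the same kind in each library, regulatory chains on the left panel and essential chains on the right; points are replicates 1 to 4 from left to right, with the mean and SD of each group. KO sham has the lowest means (11.1 and 10.7) and WT sham the highest (48.3 and 49.5), with WT sham replicate 1 far above the rest.

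Among replicates of the same group, 16 of 45 pairs of atrial genes varied together by Pearson's r. Deviations from the group mean of log2 CPM were correlated over the 16 samples for all 45 pairs of genes, with permutation of samples within groups (100000 draws) and adjustment over the pairs. All 16 pairs that passed had positive r. Spearman's rho was tested in the same way, and some of these pairs missed the threshold by it. Myl4 and Myl7 had r = 0.964 and Spearman's rho = 0.988, both with a permutation p of 1e-05, the smallest the draws allow (adjusted p = 0.00015), and r was 0.959 without the 2 samples farthest from the median. Myl4 with Sln and Myl7 with Sln also had r = 0.964. When the 2 farthest samples were left out of each pair, 10 pairs passed.

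Stard10 and Dkk3, from outside the contractile apparatus, followed the light chains and Sln with r between 0.847 and 0.913 for the 6 pairs. Gja5 joined Stard10 (r = 0.84, adjusted p = 0.00846) and each of Myl4, Myl7 and Sln (r = 0.701, 0.737 and 0.731). By Spearman's rho these Gja5 pairs missed the threshold (adjusted p = 0.0541, 0.0669, 0.0687 and 0.0651, in that order). Without the 2 farthest samples their r was 0.714, 0.526, 0.509 and 0.577. Bmp10 passed with Myl4 (r = 0.731, adjusted p = 0.0432, r = 0.604 without the 2 farthest), but not by Spearman's rho (adjusted p = 0.0541). WT MI replicate 3, high in the light chains, was low in Bmp10. Nr2f2 passed with none of the other 9, with r from -0.435 to 0.369. Pam also passed with none, its smallest adjusted p being 0.0657, with Gja5. Kcna5 passed with Stard10 alone (r = 0.666, adjusted p = 0.0406), and not by Spearman's rho (adjusted p = 0.0541). Each library contributes all its genes to these correlations, so anything that set one library apart from another is shared by all pairs.

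**Figure D4:**
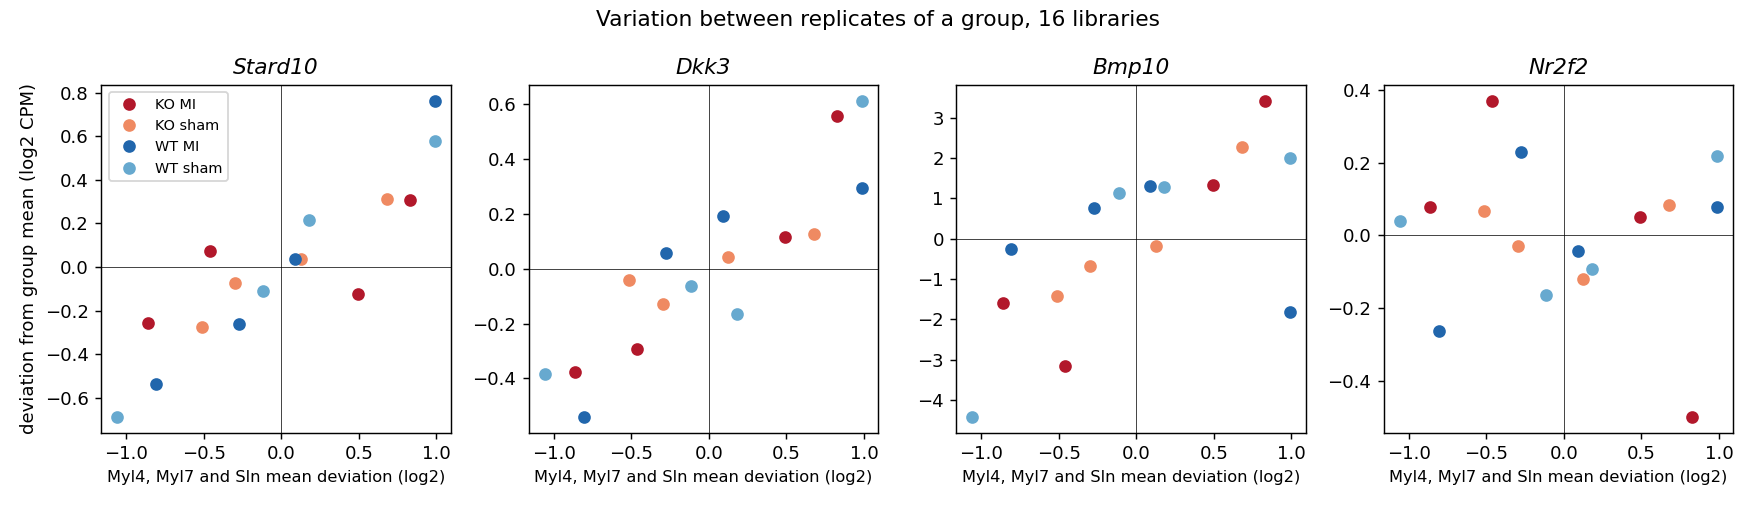
Deviation of Stard10, Dkk3, Bmp10 and Nr2f2 from the group mean (log2 CPM, vertical) against the mean deviation of Myl4, Myl7 and Sln (log2, horizontal) in 16 libraries, coloured by group. Stard10 (r = 0.894) and Dkk3 (r = 0.89) follow the horizontal axis closely, Bmp10 more loosely (r = 0.665), and Nr2f2 not (r = -0.105).

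Outside the 10 genes, the one whose within-group deviations were most like the mean of Myl4, Myl7 and Sln was Mybphl, a myosin-binding protein of atrial muscle and the conduction system, with r = 0.979 over 16 samples among 10928 candidate genes with a median r of -0.0163. It was followed by Ccdc57 (0.903), the matrix proteoglycan gene Podn (0.878), the kinase gene Sbk3 (0.871), the Tie2 ligand Angpt1 (0.828), Ggnbp2 (0.803), the acetylcholine-gated potassium channel subunit Kcnj3 (0.793), the natriuretic peptide clearance receptor Npr3 (0.788), the calcium pump Atp2b1 (0.784) and Eps8 (0.777). These values are a description, with genes picked for them. Mybphl averaged 11.3 ± 6.89 CPM in KO MI, 4.96 ± 1.29 in KO sham, 16.9 ± 9.12 in WT MI and 25.5 ± 16.3 in WT sham. It fell by 2.37 ± 0.57 on the log2 scale in KO sham relative to WT sham (adjusted p = 0.016).

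Other genes enriched in atrial muscle did not all share the change after sham surgery. Of 13 tested, 2 were lower in KO sham than in WT sham, Mybphl and Nppa, and 1 was higher, Kcnj5, and the median log2 fold change was -0.24. Over all genes tested 7.74% were called as lower and 7.6% as higher. Nppa, the atrial natriuretic peptide, stood at 412, 1819, 644 and 2186 CPM in KO MI, at 230.4, 145, 363 and 153 CPM in KO sham, at 1098, 1066, 1023 and 1796 CPM in WT MI and at 1937, 1191, 1033 and 333 CPM in WT sham. KO sham replicate 3 lay just above WT sham replicate 4, and the remaining KO sham libraries lay below all others. Nppa fell by 2.33 ± 0.61 on the log2 scale (adjusted p = 0.0231). Kcnj5, a subunit of the same acetylcholine-gated channel as Kcnj3, rose by 0.38 ± 0.12 (adjusted p = 0.0333), and its partner Kcnj3 had a log2 fold change of -0.35 (adjusted p = 0.393). The atrial transcription factor gene Tbx5 had a log2 fold change of -0.24 (adjusted p = 0.402) and Nr2f1, the paralog of Nr2f2, one of 0.33 (adjusted p = 0.193).

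Ventricular identity genes were called in both directions. In KO sham relative to WT sham, 2 of 11 tested were higher and 1 lower, where 15.3% of all genes tested were called. The transcription factor genes Irx3 and Irx5 rose by 1.10 ± 0.16 (adjusted p = 0.000266) and 0.59 ± 0.15 (adjusted p = 0.0149) on the log2 scale, and Myh7, the slow myosin heavy chain of the immature ventricle, fell by 0.72 ± 0.17 (adjusted p = 0.00936). In KO MI relative to KO sham 5 of the 11 were lower, where 8.02% of all genes tested were called as lower. Among the 5 were Irx3, at a log2 fold change of -0.83 ± 0.16 (adjusted p = 0.00271), and Pln, the ventricular counterpart of sarcolipin, at -0.48 ± 0.14 (adjusted p = 0.0272). Of 11 genes of the sinoatrial node and conduction system, which also express Gja5, 1 was lower in KO sham than in WT sham: Vsnl1, a calcium sensor, had a log2 fold change of -2.202 ± 0.47 (adjusted p = 0.00403) at levels of at most 2.33 CPM. Isl1, a defining factor of the sinoatrial node, did not exceed 0.387 CPM in any library.

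Some receptors and targets of Bmp10 were called in both directions beside the fall of the ligand. Of 17 genes of its pathway tested, 5 were higher and 2 lower in KO sham than in WT sham, where 15.3% of all genes tested were called. Bmpr2 and Acvrl1, which form the receptor of Bmp10 on endothelium, rose by 0.76 ± 0.17 (adjusted p = 0.00631) and 0.36 ± 0.09 (adjusted p = 0.0105) on the log2 scale. Id1, a direct target of BMP signalling, and Smad7, its feedback inhibitor, fell by 0.76 ± 0.15 (adjusted p = 0.00198) and 0.62 ± 0.16 (adjusted p = 0.0109). In KO MI relative to KO sham 3 of the 17 were higher and 3 lower, where 16.6% of all genes tested were called. Smad7 rose by 0.73 ± 0.15 (adjusted p = 0.00395), Id1 rose by 0.63 ± 0.14 (adjusted p = 0.00677) and Bmpr2 fell by 0.68 ± 0.17 (adjusted p = 0.0115). The median log2 fold change of the 17 genes was 0.066 in the sham comparison and -0.0065 in the knockout response.

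Calls among the partners of the other members in the sham comparison were as follows, where 15.3% of all genes tested were called. Among 11 genes of myosin light chains and their partners 6 were lower and 1 higher, with Myl9, the smooth muscle regulatory chain, at a log2 fold change of -1.40 ± 0.16 (adjusted p = 2.78e-05) and Myl1, the skeletal essential chain, at -1.76 ± 0.28 (adjusted p = 0.000816). Among 11 calcium-handling genes around Sln 1 was lower, Casq1, the skeletal calsequestrin (-0.94 ± 0.27, adjusted p = 0.0281); Atp2a2, the pump that sarcolipin inhibits, had a log2 fold change of 0.24 ± 0.11 (adjusted p = 0.124). Among 13 gap junction and potassium channel genes 3 were higher, among them the arterial connexin gene Gja4 (0.49 ± 0.11, adjusted p = 0.00589) and the potassium channel gene Kcnd2 (1.12 ± 0.24, adjusted p = 0.00378). Among 9 genes of peptide secretion beside Pam 2 were higher, Corin, the protease that activates atrial natriuretic peptide (0.49 ± 0.14, adjusted p = 0.0231), and Pcsk6 (0.68 ± 0.14, adjusted p = 0.00335), and Nppa was lower. Among 6 tested genes of Wnt antagonists and regulators related to Dkk3 the smallest adjusted p was 0.141, for Sfrp5.

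Some markers of other cell types were called in the sham comparison, and their part in the results of the atrial genes was not tested. Over all genes tested 7.74% were called as lower and 7.6% as higher. Of 11 mesothelial markers, genes of the outer lining of the heart, 10 were lower in KO sham than in WT sham, with a summed level of 89.1 to 102 CPM in KO sham and 184 to 229 CPM in WT sham; Upk3b had a log2 fold change of -4.03 ± 0.60 (adjusted p = 0.000677) and Msln one of -3.47 ± 0.55 (adjusted p = 0.00138). In KO MI relative to KO sham 9 of the 11 were higher, where 8.54% of all genes tested were called as higher. Of 9 arterial endothelial markers other than Gja5 4 were higher in KO sham, with sums of 402 to 430.2 CPM in KO sham and 293 to 342 CPM in WT sham, while Gja5 fell. Of 10 venous and lymphatic markers other than Nr2f2 1 was higher, Aplnr (1.27 ± 0.16, adjusted p = 7.82e-05), and 1 lower, Lyve1 (-0.73 ± 0.24, adjusted p = 0.0436), with sums of 576 to 614 CPM in KO sham and 480.1 to 509 CPM in WT sham. No marker of these 3 lists was at 0 in any library. Smooth muscle markers were lower for 3 of 8, with sums of 2167 to 2469 CPM in KO sham and 2381 to 2961 CPM in WT sham. Skeletal muscle markers were lower for 3 of 6, with sums of 2245 to 2609 CPM in KO sham and 2471 to 3431 CPM in WT sham, and Myod1, the defining factor of that tissue, did not exceed 0.0823 CPM in any library. Lung epithelial markers summed to 46.0 to 55.9 CPM in KO sham and 0.0779 to 85.7 CPM in WT sham. The haemoglobin RNA of red blood cells came to 947 to 1353 CPM in KO sham and 2841 to 4612 CPM in WT sham.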

How the data were processed

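Ventricular messenger RNA of 16 neonatal mouse samples was enriched with oligo(dT) beads and made into libraries with a NEBNext Ultra kit, per the labels' protocols. The submitters' processing notes name HISAT2 2.2.1 with build GRCm39, HTSeq 0.13.5, cutadapt 3.4, bcl2fastq 2.17, DESeq2 and FastQC, in no stated order. The authors deposited raw read counts per Ensembl gene; the strand setting and annotation release are not given in the sources used here, so genes that overlap on opposite strands may share reads. Reads in no feature (23.7 to 28.2% of the reads in the table) and 5 lines naming no gene in all were kept out of library sizes. Symbols (22362 of 22468 genes), chromosomes, distances and transcript lengths came from a GRCm38 annotation and promoters from RefSeq GRCm38.p6.

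Groups came from the labels. Nothing says that samples were separate animals, so p-values measure only the spread between these samples. Counts were fitted in R 4.3.3 with edgeR 4.0.16 (TMM scaling, filterByExpr, robust quasi-likelihood, 1 mean per group, 12 residual degrees of freedom), with Benjamini-Hochberg adjustment over 13412 genes and a threshold of 0.05. Levels are CPM with TMM-scaled totals. A floor of 3 reads was 0.174 to 0.280 CPM over the unscaled gene count totals. Intervals come from the edgeR fit and rest on the spread between these samples, and floors rest on read counts alone. Reads carried no molecular identifiers. Light chain ratios used exact permutation tests and correlations used log2 CPM with a prior count of 2. No pair of replicates agreed within sampling noise. The fit was tested on simulated data.

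The 10 genes, the marker lists and the tests were chosen with earlier results of these data known, and the CArG box and GATA motifs were added to the search after the promoter sequences were seen. Named genes were the 10 members, 2 to 4 genes of each list with the smallest p in the comparison described, the partners Myl2, Myl3, Atp2a2, Pln and Nppa, and the 10 genes whose within-group deviations were most like Myl4, Myl7 and Sln (mean log2 CPM of at least 2). Tbx5, Nr2f1, Kcnj3 and Gpr89 were named beside these after their values were seen. Alternatives were DESeq2 1.42.0, RLE and upper quartile scaling, no filter, a mean of at least 50 counts, a replicate block, the compared groups alone, leaving out each library, and leaving out the libraries low in Y-linked reads (under 5 CPM) or apart on the fourth component; the last was chosen after seeing the data.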

Additional observations from a re-analysis of the deposited data

Results flagged for a closer look

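Of 68 sets of 4 replicates examined for the 10 atrial genes and the named partners, 2 held a library whose gap to its nearest neighbour was large against the range of the set; chance flags about 1 in 20. Bmp10 stood at 3.89 CPM in KO sham replicate 3, against 0.160 to 0.586 CPM in the other KO sham libraries. Nppa stood at 1796 CPM in WT MI replicate 4, against 1023 to 1098 CPM in the other WT MI libraries.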

How the results depend on the processing

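In KO sham against WT sham, 7 of 10 genes were called in the reported fit, 5 to 9 under scaling, filter, replicate block, groups alone and DESeq2, 6 without the libraries apart on the fourth component, 1 (Gja5) without the libraries low in Y-linked reads, and 3 to 8 with 1 library left out. The share called over all genes tested shifted too, from 15.3% in the reported fit. It was 24.7% with the groups alone (9 of the 10 called), 17% with DESeq2 (8), 16.4% with the replicate block (5) and 10.2% with no filter (6). Without the libraries apart on the fourth component it was 21.7%, and without those low in Y-linked reads 9.19%. In KO MI against KO sham 1 was called throughout, except 2 with DESeq2. In WT MI against WT sham the count was 0, and 0 to 1 with 1 library left out; in KO MI against WT MI it was 0 throughout. The interaction had 0, with 2 under DESeq2 and 0 to 2 with 1 library left out. Pairs of genes varying together by Pearson's r numbered 16, 16 with RLE scaling and 10 without the 2 farthest samples. The cause of these shifts was not tested. No called fold change changed direction under any alternative. The Myl4 to Myl3 ratio of WT MI against WT sham, uncalled at -0.39, was 0.03 without WT sham replicate 1. Replicate numbers did not pair samples: of 24 pairs of groups and numbers 4 correlated above 0.1 (range -0.0968 to 0.475), and 5 of 16 samples matched their own number best. With the replicate block 5 genes were called in KO sham against WT sham, without Sln (adjusted p = 0.0528) and Bmp10 (adjusted p = 0.0557). Depth limits Bmp10 most, at 2 to 52 reads per KO sham library.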
